A study of Rattus norvegicus with 20 samples.

Results

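The miR-338 and miR-219 microRNAs (miRNAs) were followed over 20 Agilent miRNA arrays with 1 dye each, 10 of which held RNA of rat soleus muscle while the other 10 held RNA of dorsal root ganglia (DRGs). The members were taken by name, as every miRNA of the array whose name begins with rno-miR-338 or rno-miR-219. Of the 348 miRNAs that carry 1 name in every file, 5 met this rule, namely miR-338, its opposite strand miR-338*, miR-219-5p, miR-219-1-3p and miR-219-2-3p. All animals were adult male Sprague-Dawley rats, and the surgery was on the right sciatic nerve. In the denervation group the nerve was cut, a piece of it was taken out and the proximal stump was tied and buried in thigh muscle, and the tissue was collected at 6 months. In the entrapment group a silastic tube that did not constrict the nerve lay around it for 6 months, and in the decompression group such a tube was taken off after 6 months and the rats were followed for 3 months more. The sham control was operated on without these injuries, and its labels give no time. The question of the study was how a compressed nerve and a severed nerve differ in their miRNA profiles. Each tissue had 3 arrays of each injury group and 1 sham array. The Methods give 3 rats a group, and neither they nor the labels say whether the sham array holds 1 rat or a pool. The labels call the injury arrays experimental replicates, so the p-values measure the spread between these arrays, and every comparison with sham rests on the same single array of its tissue.

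A miRNA is a short RNA that pairs with messenger RNAs through its seed, the stretch near its 5′ end, and lowers their translation or stability. miR-219 and miR-338 are best known from oligodendrocytes, the myelin-forming glia of the central nervous system, where they rise as precursors mature and repress factors that keep the precursors dividing. miR-338 lies within Aatk, a gene for a kinase of neurons, and is also known from axons, where it represses nuclear transcripts for mitochondrial proteins. In the peripheral nerve myelin comes from Schwann cells, which accompany the sensory axons in the DRGs together with satellite glia around the neuronal cell bodies. Soleus muscle holds only the ends of axons, their Schwann cells and thin nerve branches among its fibres.

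The 5 mature sequences are shown because the array names are older than the present ones and because the strands of 1 hairpin behaved differently. They are those of RefSeq (rat build GRCr8) under the present names, 5′ to 3′, with the seed (bases 2 to 8) in capitals.
miR-338 (now miR-338-3p): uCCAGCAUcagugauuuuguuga
miR-338* (now miR-338-5p): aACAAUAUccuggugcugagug
miR-219-5p (now miR-219a-5p): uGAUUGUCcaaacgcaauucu
miR-219-1-3p (now miR-219a-1-3p): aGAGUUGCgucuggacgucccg
miR-219-2-3p (now miR-219a-2-3p): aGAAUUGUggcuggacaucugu

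No seed was shared among the 5 or with any other of the 693 mature rat miRNA names in that table. miR-338 and miR-338* come from the 2 arms of the Mir338 hairpin on chromosome 10 (minus strand, chr10:105796342-105796407), which lies inside the span of Aatk and of Mir3065. The hairpin is shown with both mature strands in capitals, miR-338* first and miR-338 second.
Mir338 hairpin: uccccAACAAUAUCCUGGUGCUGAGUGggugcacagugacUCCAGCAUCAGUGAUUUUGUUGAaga

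The miR-219-5p sequence is present in 2 of the 419 rat hairpins of the table, Mir219a1 on chromosome 20 (plus strand, chr20:4831600-4831620) and Mir219-2 on chromosome 3 (minus strand, chr3:33516561-33516581), so its signal cannot be assigned to either. Mir219-2 lies inside the span of Cercam, LOC120101515 and Mir2964, and no other gene of the table overlaps Mir219a1. The opposite arms differ, since miR-219-1-3p (chr20:4831641-4831662) and miR-219-2-3p (chr3:33516517-33516538) are identical at 15 of 22 positions and at 5 of the 7 seed positions.

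The deposited value of a miRNA is its total gene signal, an intensity that the scanner software summed over the probes after background subtraction. Here each array was divided by its 75th percentile relative to the other arrays of the tissue, and the result is called the scaled signal. The detection floor was set where detected miRNAs ended, as the middle value among the arrays' lowest detected scaled signals. It was 2.28 in the DRGs and 2.72 in soleus, and log2 was taken after lower signals had been set to it. limma was fitted over all 10 arrays of a tissue to the miRNAs detected on at least 3 of them, here called the tested miRNAs. Of the 5 members, 3 passed this filter in each tissue and were tested, and miR-219-1-3p and miR-219-2-3p were detected on 0 of 20 arrays. The labelled tissues were borne out by their markers. Sums over marker lists are given on a scale set over the 102 miRNAs detected on all 20 arrays. Signals below 0 counted as 0 in these sums. The 5 skeletal muscle miRNAs (miR-1, miR-133a, miR-133b, miR-206 and miR-499) summed to 47965 to 299142 in soleus and to 261 to 467 in the DRGs. The 3 miRNAs of sensory neurons (miR-183, miR-96 and miR-182) summed to 2289 to 3491 in the DRGs and to at most 33.7 in soleus. In soleus miR-183 was detected on 0 of 10 arrays, while miR-96 and miR-182 were each detected on some. No soleus array detected more than 1 of the 3. In bulk tissue fewer cells of a type and less RNA per cell cannot be told apart. A processed table that the authors also deposited exchanges the names of the DRG entrapment and decompression arrays relative to the scanner files. The labels of the scanner files are followed, and which source is right is not known.

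miR-338 was abundant in the DRGs and lowest on the sham array. Its scaled signal was 7969 on the sham array, 12438, 10859 and 11593 after denervation, 10334, 12295 and 11680 after entrapment, and 10560, 11214 and 9801 after decompression. All 9 injury arrays were above sham, the 3 injury groups overlapped each other, and the scanner error of a single value was at most 7.15%. Denervation had a mean of 11630 ± 790 (SD, n = 3), entrapment one of 11436 ± 1003 and decompression one of 10525 ± 707. After entrapment miR-338 rose 1.43-fold over sham, a log2 difference of 0.52 ± 0.13 (SE) with an adjusted p of 0.0290 by limma with the Benjamini-Hochberg method. Denervation, at 0.54 with an adjusted p of 0.137 by limma, and decompression, at 0.40 with 0.0703, did not pass. The entrapment call was lost without denervation replicate 3 (limma adjusted p = 0.0508) and without entrapment replicate 2 (0.0669), and decompression passed without entrapment replicate 1 (0.0454). Under the exchanged names of the processed table the call moved to decompression. Its values scaled to the percentile gave decompression 0.52 (limma adjusted p = 0.0306) and entrapment 0.40 (0.0721).

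The call of miR-338 against sham rested on the scaling. Without scaling the signal was 9187 on the sham array, 8603 to 11888 after entrapment and 8555 to 11015 after decompression, and the sham value then lay within both ranges. The unscaled log2 difference of entrapment from sham was 0.16, with an adjusted p of 0.650 by limma. The median difference of all tested miRNAs between entrapment and sham was -0.11 on the scaled signal and -0.47 without scaling. Between the injury groups no difference of miR-338 passed limma's threshold on the scaled signal. The log2 difference was -0.03 (95% interval -0.24 to 0.19) for entrapment from denervation, -0.14 (-0.36 to 0.07) for decompression from denervation and -0.12 (-0.34 to 0.10) for decompression from entrapment, with adjusted p-values of 0.864, 0.258 and 1. On this scaling the intervals leave room for a change of 1.29-fold at most, and other scalings went beyond it. Without scaling miR-338 was lower than after denervation by limma, at -0.47 after entrapment and -0.58 after decompression, with adjusted p-values of 0.0426 and 0.0190. Under median scaling it was higher by limma, at 0.62 and 0.51, with adjusted p-values of 0.00869 and 0.0209. The direction of miR-338 from denervation therefore turned with the scaling.

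**Figure D1:**
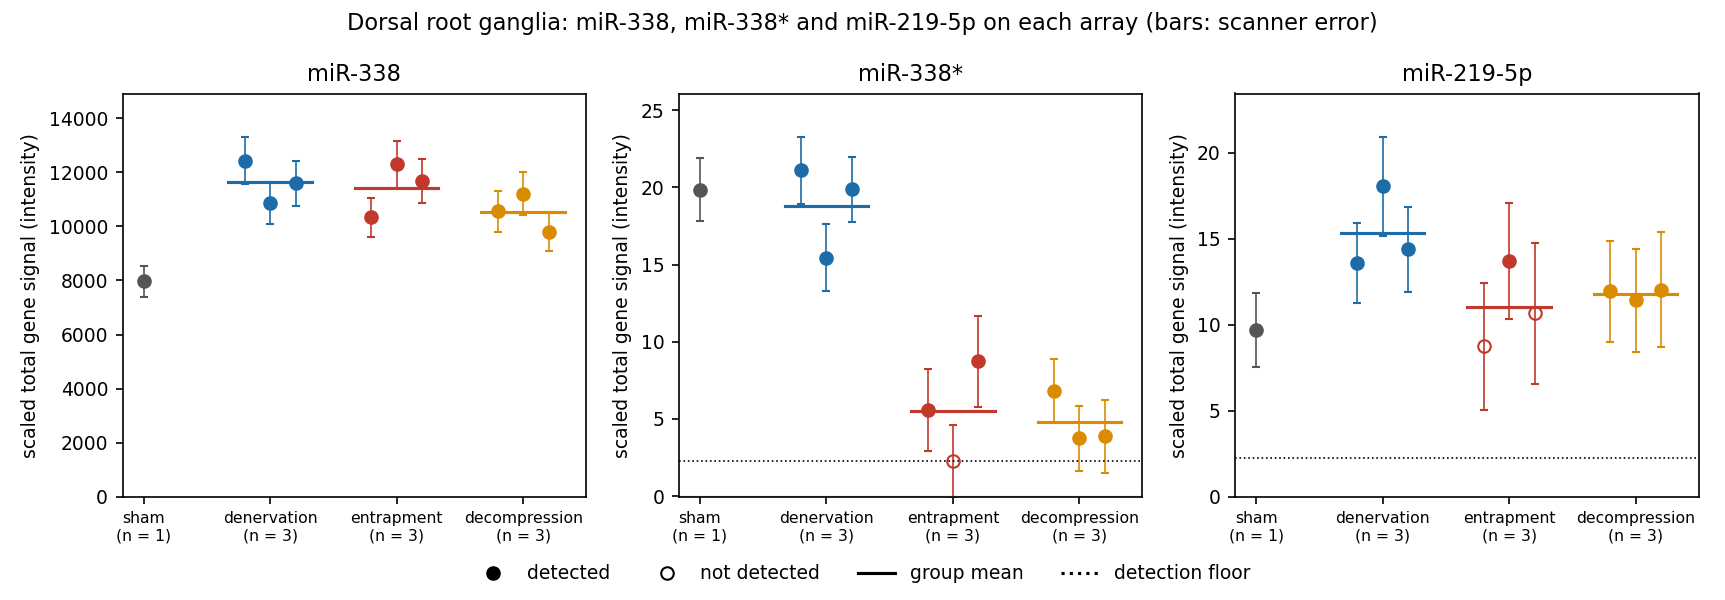
Scaled total gene signal (intensity, linear axis from 0) of miR-338, miR-338* and miR-219-5p on the 10 DRG arrays by group. Points are arrays in replicate order, bars the scanner error, lines the mean of 3 arrays and the dotted line the detection floor of 2.28. miR-338 was lowest on the sham array, miR-338* was below 9 on every entrapment and decompression array and above 15 on every other, and miR-219-5p was highest after denervation on average.

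miR-338*, the strand of the hairpin that is usually the less abundant one, parted the DRG groups in another way. Its scaled signal was 19.9 on the sham array and 21.1, 15.5 and 19.9 after denervation. After entrapment it was 5.59, 2.28 and 8.73, and after decompression 6.81, 3.75 and 3.87. All 6 entrapment and decompression arrays lay below all 4 sham and denervation arrays, with no overlap. How many other tested miRNAs split the arrays in this way, here or in the comparisons below, was not counted. Differences between these groups were common. In either direction, limma called 41.1% of all tested miRNAs for entrapment from denervation and 36.5% for decompression from denervation. It was detected on 9 of the 10 arrays, and the exception was entrapment replicate 2, which lay at the floor. The mean fell from 18.8 ± 2.98 (SD, n = 3) after denervation to 5.53 ± 3.23 after entrapment and 4.81 ± 1.73 after decompression.

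Against denervation miR-338* fell 3.88-fold after entrapment and 4.03-fold after decompression. The log2 differences were -1.96 ± 0.46 and -2.01 ± 0.46 (SE), with adjusted p-values of 0.0117 and 0.00985 by limma. Both calls held when any injury array was left out, with adjusted p-values of at most 0.0425, and both were lost under quantile scaling (limma adjusted p = 0.0591 and 0.131). Denervation and sham were alike in level, with a log2 difference of -0.09 and a wide 95% interval of -1.58 to 1.40. Against sham, miR-338* was more than 2-fold lower on each of the 3 entrapment arrays, at 0.115 to 0.440 of the sham signal, and on each of the 3 decompression arrays, at 0.189 to 0.343. The limma test of these, with log2 differences of -2.04 and -2.10, did not pass, at adjusted p-values of 0.0607 and 0.0545. Decompression and entrapment differed by -0.06 (95% interval -1.11 to 1.00).

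The background of the arrays moved with the same division of groups. The median unscaled signal of the 82 miRNAs detected on none of the 20 arrays was -2.24 to -1.44 on the 4 sham and denervation arrays of the DRGs and -6.35 to -4.00 on the 6 entrapment and decompression arrays. The unscaled signal of miR-338* was 17.4 to 28.5 on the first set and 1.98 to 8.89 on the second. Measured from the median of its own array, it was 24.4 on sham, 19.0 to 29.9 after denervation, 8.33 to 14.6 after entrapment and 8.42 to 9.97 after decompression, still without overlap. With that median subtracted from every signal, an alternative chosen after seeing the data, the log2 difference from denervation shrank to -0.85 for entrapment and -1.08 for decompression, with adjusted p-values of 0.00757 and 0.00229 by limma. Those from sham became -0.92 and -1.15 and passed, at 0.0458 and 0.0175. Whether the groups or the handling of their arrays set this level cannot be told apart.

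The ratio of the strands within an array does not depend on the scaling. It does depend on the background level, which split the same groups, and it is given without the background median subtracted. On entrapment replicate 2 miR-338* was not detected. In the DRGs miR-338* gave 2.49 units of signal per 1000 units of miR-338 on the sham array. The ratio was 1.70, 1.42 and 1.72 per 1000 after denervation, 0.541, 0.186 and 0.747 after entrapment, and 0.644, 0.335 and 0.395 after decompression. It is a ratio of signals of different probes and not of molecules, and is used only to compare arrays. Entrapment lay below denervation by a log2 difference of -1.93 and decompression by -1.87, with no overlap. An exact two-sided permutation test gave p = 0.1 for each, the smallest p that 3 arrays against 3 allow (0.15 after adjustment over the 3 comparisons), so this design cannot reach 0.05. Decompression and entrapment differed by 0.06 (exact permutation p = 1).

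**Figure D2:**
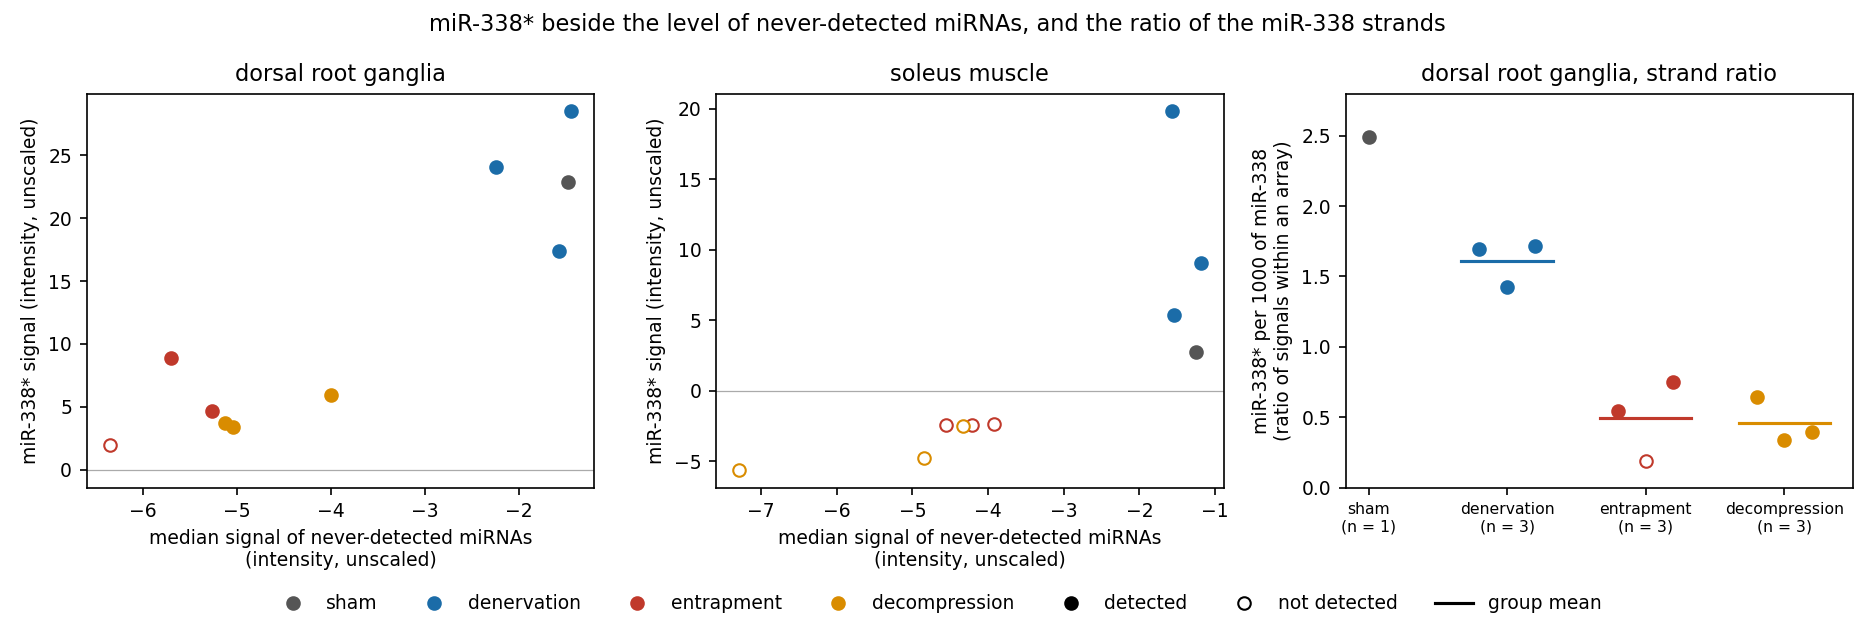
The first panels plot the unscaled miR-338* signal (intensity) against the median unscaled signal of the 82 never-detected miRNAs of the same array, for the DRGs and for soleus, with open points where miR-338* was not detected. The last panel gives the miR-338* signal per 1000 of miR-338 on each DRG array, without that median subtracted, with lines for means of 3 arrays. In both tissues the entrapment and decompression arrays lie to the lower left of the sham and denervation arrays, and the DRG ratio is 0.747 or less on the former and 1.42 or more on the latter.

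miR-219-5p was near the limit of detection in the DRGs. Its scaled signal was 9.69 on the sham array, 13.6, 18.1 and 14.4 after denervation, 8.74, 13.7 and 10.7 after entrapment, and 11.9, 11.4 and 12.1 after decompression. It was detected on 8 of the 10 arrays, all but entrapment replicates 1 and 3. Denervation had the highest mean, 15.3 ± 2.38 (SD, n = 3), and overlapped with entrapment, at 11.0 ± 2.52, but not with decompression, at 11.8 ± 0.341. The error that the scanner software gave a single value was 16.0% to 42.5% of the signal.

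By limma miR-219-5p was 1.40-fold lower after entrapment than after denervation, with a log2 difference of -0.49 ± 0.17 (SE) and an adjusted p of 0.0490. The call was lost when any injury array other than entrapment replicate 2 was left out, with adjusted p-values of 0.0669 to 0.151. With the background median subtracted the log2 difference was -0.03 (limma adjusted p = 0.896), and under median and quantile scaling it turned to 0.15 and 0.18. Decompression from denervation, at -0.37, had an adjusted p of 0.128, and denervation from sham, at 0.65, one of 0.221 by limma. The log2 differences from sham were 0.16 (95% interval -0.39 to 0.71) for entrapment and 0.28 (-0.27 to 0.84) for decompression, and decompression differed from entrapment by 0.12 (-0.27 to 0.51).

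The other arms of the miR-219 hairpins, miR-219-1-3p and miR-219-2-3p, were not detected on any DRG array. Their unscaled signals were -10.3 to -3.25 and -6.38 to -1.37. Both were lower on all 6 entrapment and decompression arrays than on all 4 sham and denervation arrays, as the median of the never-detected miRNAs was. For miR-219-1-3p the ranges were -10.3 to -7.22 against -4.99 to -3.25, and for miR-219-2-3p -6.38 to -3.65 against -3.06 to -1.37. Signals below 0 carry no level, and no fold is given.

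The calls of the 3 members in the DRGs stand here beside those of all tested miRNAs, and with 3 members no difference in frequency can be read from them. Between denervation and sham limma called 0 of the 3, against 0.457% of all tested miRNAs. It called 1 of 3 for entrapment from sham (19.6% of all), 0 of 3 for decompression from sham (18.3%), 2 of 3 for entrapment from denervation (41.1%) and 1 of 3 for decompression from denervation (36.5%). Between decompression and entrapment limma called none of the members and 0% of all, while 8 tested miRNAs were higher and 1 lower at an unadjusted p under 0.05. By the rule of a 2-fold difference from sham on each of the 3 arrays, 0 of 3 were higher in any injury group, against 0.457% of all after denervation and 0% after entrapment and after decompression. Lower by that rule were 0 of 3 after denervation (0.913% of all), 1 of 3 after entrapment (11.0%) and 1 of 3 after decompression (13.7%). On the scale over the 20 arrays, the red blood cell miRNAs miR-451 and miR-144 summed to 3341 on sham and 801 to 1630 after denervation. They summed to 1059 to 3629 after entrapment and 1670 to 5316 after decompression. The 3 leukocyte miRNAs summed to 930, 663 to 1095, 527 to 769 and 788 to 1072 in the same order, and the endothelial miR-126 lay at 577 to 721 on all 10 arrays. In these 3 lists the sham and denervation arrays overlapped the entrapment and decompression arrays. The 3 sensory neuron miRNAs summed to 2808 on sham, 2289 to 2697 after denervation, 3189 to 3447 after entrapment and 3045 to 3491 after decompression. The 9 other miRNAs of myelinating glia summed to 9038, 8961 to 10077, 11553 to 12589 and 11905 to 12784 in the same order. On that scale both of these sums were higher on all 6 entrapment and decompression arrays than on the 4 sham and denervation arrays. The sums were not taken on the DRG scale used for the members. The glia and sensory neuron lists share miR-182. On the DRG scale miR-29a (2636 to 4786) and miR-23a (2191 to 3083) were the brightest of the glia list. In it limma called miR-29a higher, and miR-9 and miR-222 lower, after entrapment and after decompression than on sham. The part of these lists in the results on the members was not tested.

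**Figure D3:**
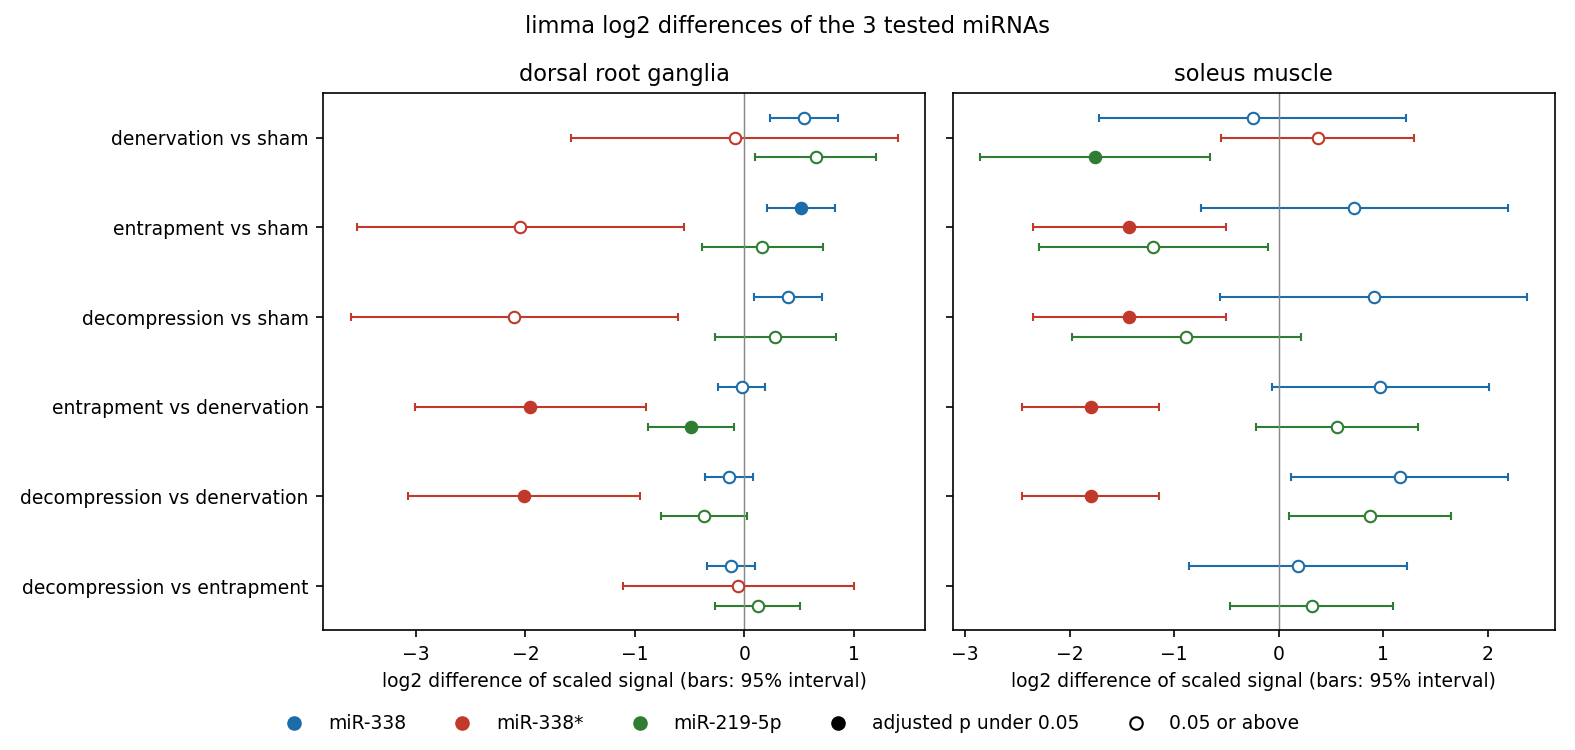
Log2 differences of the scaled signal between groups for miR-338, miR-338* and miR-219-5p in the DRGs and in soleus, from limma over the 10 arrays of a tissue, with bars for the 95% interval and filled points for an adjusted p under 0.05. In the DRGs the largest differences are those of miR-338* for entrapment and decompression, near -2. In soleus the miR-338* differences of these groups use the detection floor, since it was not detected there, and miR-338* is left out where both groups were at the floor.

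In soleus muscle miR-338 was present at a low level on all 10 arrays. Its scaled signal was 93.9 on the sham array, 46.7, 63.8 and 166 after denervation, 119, 216 and 146 after entrapment, and 192, 200 and 143 after decompression. The entrapment and decompression arrays were all above sham, while denervation spread on both sides of it, with replicate 3 far above the other two. The means were 92.0 ± 64.2 (SD, n = 3) after denervation, 160 ± 50.0 after entrapment and 178 ± 30.4 after decompression. No soleus difference of miR-338 passed limma's threshold. The study lists miR-338 among the miRNAs downregulated in soleus after entrapment, by a 2-fold change from sham on its own normalization. Here its scaled signal was above sham on all 3 entrapment arrays. In the authors' processed values it was above sham as well, at 0.352 on sham and 2.03, 3.72 and 2.47 after entrapment. Why the study lists it as lower was not tested. The log2 difference from sham was -0.25 (95% interval -1.72 to 1.22) for denervation, 0.72 (-0.75 to 2.20) for entrapment and 0.91 (-0.56 to 2.38) for decompression. From denervation it was 0.97 (adjusted p = 0.234 by limma) for entrapment and 1.16 (0.128) for decompression, and decompression differed from entrapment by 0.18 (95% interval -0.86 to 1.23).

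On the scaled signal the spread after denervation went with the way the soleus files were written. Without scaling the denervation signals of miR-338 were 61.0, 148 and 62.6, and replicate 2 stood apart in place of replicate 3. Without denervation replicate 3 miR-338 was higher after entrapment by 1.51 and after decompression by 1.69 than after denervation, with adjusted p-values of 0.0170 and 0.00974 by limma. The files of the sham array and of denervation replicates 1 and 2 share a layout of their own. Within that layout denervation was below sham by -0.78 on the log2 scale, and within the other layout entrapment differed from denervation replicate 3 by -0.09 and decompression by 0.09. Layout and group cannot be told apart between these arrays. The soleus arrays also differed in brightness, by 6.20-fold in their 75th percentile, and without scaling miR-338 had 35.2 on the sham array, the dimmest, and 61.0 to 313 on the others.

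**Figure D4:**
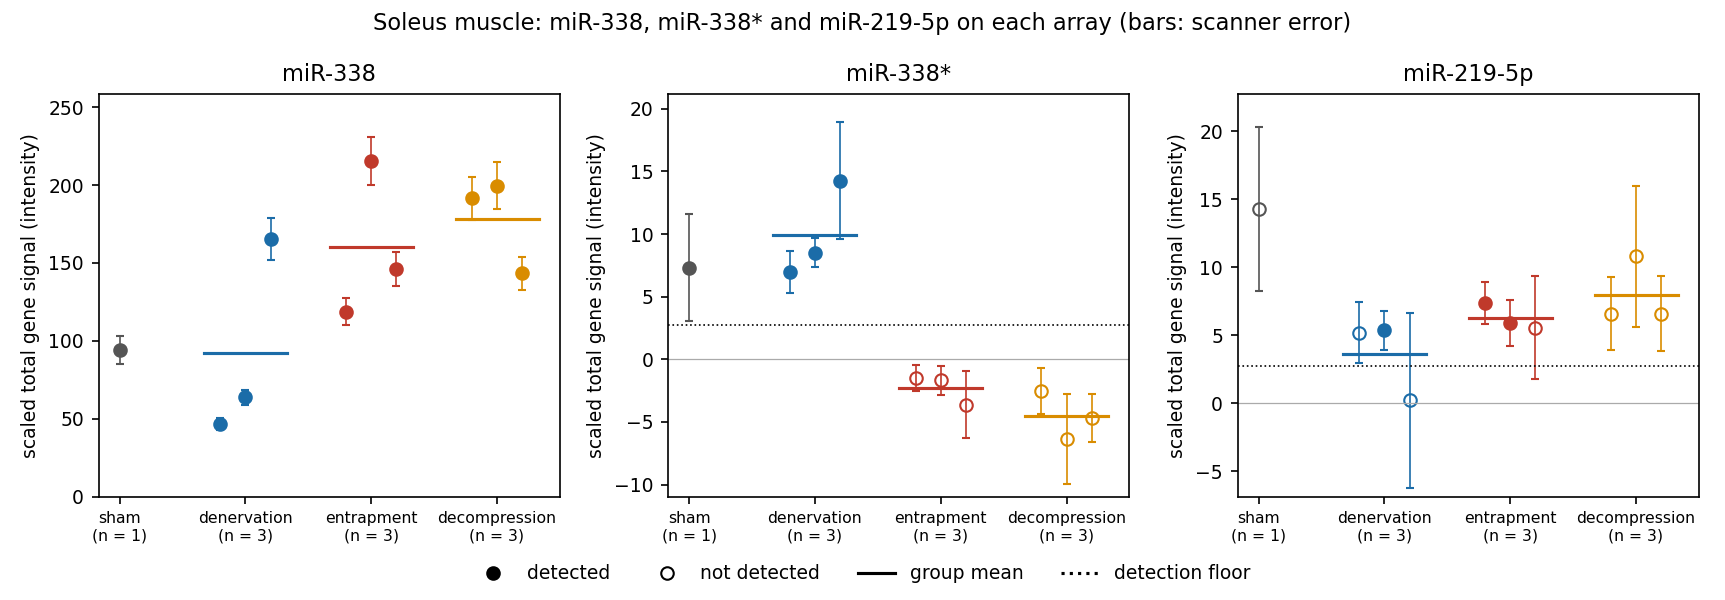
Scaled total gene signal (intensity, linear axis) of miR-338, miR-338* and miR-219-5p on the 10 soleus arrays by group. Points are arrays in replicate order, open where the miRNA was not detected, bars the scanner error, lines the mean of 3 arrays and the dotted line the detection floor of 2.72. miR-338* was above the floor on the sham and denervation arrays and below 0 on all 6 entrapment and decompression arrays, and miR-219-5p was mostly not detected.

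miR-338* was detected in soleus on the 4 sham and denervation arrays and on none of the 6 others. Its scaled signal was 7.31 on the sham array and 6.96, 8.53 and 14.3 after denervation, and it was below 0 on every entrapment and decompression array. The scaled signal was also taken against the level at which miRNAs were still detected, without regard to differences in background between arrays. On this reckoning miR-338* was at least 2.81-fold higher after denervation than after entrapment and at least 3.36-fold higher than after decompression. For the sham array the same bounds were 2.17-fold over entrapment and 2.59-fold over decompression. These bounds set the mean of the brighter group against the lowest signal of a detected miRNA on each array of the dimmer group. The floor was used where it was higher. Scanner error is not taken in by the bounds, and on the sham array it was 4.28 for the scaled signal of 7.31. The lower background of the entrapment and decompression arrays is not taken in either. With the background median subtracted, the log2 differences of the floored values from denervation and from sham were all smaller than these bounds. The bounds therefore hold only for the scaled signal as it stands. limma on the floored values gave adjusted p-values of 0.00375 and 0.00437 against denervation and of 0.0312 and 0.0272 against sham. Every entrapment and decompression array was at the floor, so the spread of these groups entered as 0. These p-values rest on the spread after denervation and on that of the other miRNAs, and do not measure the spread in the floored groups. The calls against sham were lost without entrapment replicate 2 (limma adjusted p = 0.0728) or 3 (0.0662) and without decompression replicate 1 (0.0548 for entrapment, 0.0596 for decompression) or 3 (0.0577 for decompression).

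miR-338* lay closer to the background on the soleus sham, entrapment and decompression arrays than on the DRG arrays of the same groups. The median of the never-detected miRNAs was -1.57 to -1.19 on the sham and denervation arrays and -7.29 to -3.92 on the others, and miR-338* measured from it was 3.99 on sham, 6.95 to 21.4 after denervation, 1.56 to 2.13 after entrapment and 0.066 to 1.84 after decompression. With the median subtracted none of the 4 calls of miR-338* remained, at adjusted p-values of 0.191 to 0.274 by limma. Without scaling, sham and both groups were all set to the floor and the differences from denervation, -1.80 each, had adjusted p-values of 0.344 and 0.314 by limma.

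miR-219-5p was not measurable on most soleus arrays. It was detected on 3 of 10, denervation replicate 2 and entrapment replicates 1 and 2, and not on the sham array. The scaled signal was 14.3 on sham, 5.20, 5.35 and 0.203 after denervation, 7.38, 5.90 and 5.56 after entrapment, and 6.57, 10.8 and 6.57 after decompression. The sham value comes from an unscaled signal of 5.36 on the dimmest array, within the range of 0.0768 to 12.4 on the injury arrays. limma gave denervation from sham a log2 difference of -1.76 with an adjusted p of 0.0257. Without scaling the log2 difference was 0.21, and since the sham array did not detect miR-219-5p no change is stated. The other log2 differences of miR-219-5p did not pass, with limma adjusted p-values of 0.0993 for entrapment and 0.210 for decompression from sham, 0.343 and 0.128 from denervation, and 1 between these groups. miR-219-1-3p and miR-219-2-3p had unscaled soleus signals of -13.2 to 0.0882 and -7.85 to 1.40.

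limma called 1 of the 3 members in each of the comparisons of denervation (26.0% of the 173 tested), entrapment (29.5%) and decompression (31.8%) with sham, and 1 of 3 for entrapment (11.6%) and decompression (13.9%) from denervation. Between decompression and entrapment it called 0 of 3 and 0% of all, with 6 of 173 at an unadjusted p under 0.05. By the 2-fold rule 0 of 3 were higher than sham after denervation (15.6% of all), entrapment (11.0%) or decompression (13.3%), and 1 of 3 was lower after denervation (18.5%), entrapment (27.2%) and decompression (27.2%), which was miR-219-5p after denervation and miR-338* after the others. On the scale over the 20 arrays, the muscle miRNAs summed to 175901 on sham and 84266 to 299142 after denervation. They summed to 47965 to 98420 after entrapment and 84596 to 88086 after decompression. Endothelial miR-126 was 321 on sham, 899 to 1157 after denervation, 860 to 1375 after entrapment and 1001 to 1409 after decompression. The red blood cell pair summed to 167 to 1982 over all arrays and the leukocyte miRNAs to 155 to 495, and the 4 miRNAs of central neurons (miR-124, miR-9, miR-9* and miR-137) were detected on 0 of 10 soleus arrays. In the DRGs all 4 of these were detected on every array, with a sum of 2187 to 2588. The part of these lists in the soleus values of the members was not tested.

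The tissue made the largest difference for miR-338. On a scale set over the 102 miRNAs detected on all 20 arrays, miR-338 was 39.6 to 168 in soleus (median 118) and 8873 to 14168 in the DRGs (median 12996). The lowest DRG array was above the highest soleus array in every group. limma over the 20 arrays, of the mean of the 4 DRG groups against the mean of the 4 soleus groups, gave a log2 difference of 6.91 ± 0.21 (SE), or 120-fold, with an adjusted p of 8.9e-14. miR-338* was higher in the DRGs by 1.44 ± 0.25 (SE) (2.72-fold, adjusted p = 7.87e-05 by limma) and miR-219-5p by 1.15 ± 0.16 (SE) (2.22-fold, 9.35e-06). In soleus miR-338* was detected on only 4 of 10 arrays and miR-219-5p on only 3. On every soleus entrapment and decompression array miR-338* was set to the floor, so its fold, SE and p depend on the floor. All 3 members were called, as were 81.2% of the 234 miRNAs tested, whose median log2 difference was 1.04. The values of the minor members depended on the scaling. Under quantile scaling miR-338* was 0.25 (limma adjusted p = 0.160) and miR-219-5p turned to -0.85 (0.000492), and with the percentile over all miRNAs miR-219-5p was 0.37 (0.0679). For miR-338 the call was unchanged in every alternative run.

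**Figure D5:**
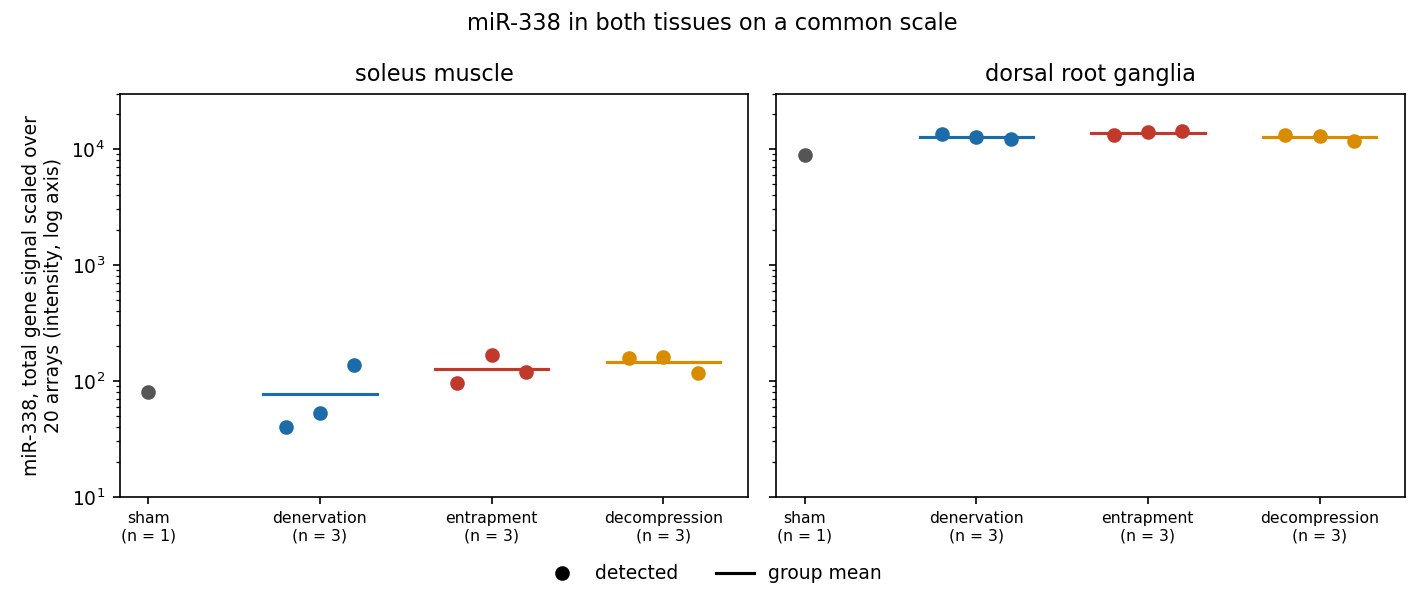
miR-338 on the 20 arrays, as total gene signal scaled over the 102 miRNAs detected on all of them (intensity, log axis), by tissue and group, with lines for the mean of 3 arrays. Soleus arrays lie between 39.6 and 168 and DRG arrays between 8873 and 14168.

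Whether an injury moved a member differently in the tissues was tested as the difference of its differences from sham, DRGs minus soleus. For miR-338 these log2 values were 0.79 (limma adjusted p = 0.466) for denervation, -0.01 (0.993) for entrapment and -0.35 (0.736) for decompression. For miR-338* they were -0.46, -0.52 and -0.58, with adjusted p-values of 0.723, 0.682 and 0.638. The result for miR-219-5p was 2.39 (0.00556) for denervation, 1.56 (0.0397) for entrapment and 1.33 (0.0695) for decompression, and it rests on the soleus sham array, which did not detect it. Thus 1 of 3 members was called for denervation (23.5% of the 234), 1 for entrapment (27.4%) and 0 for decompression (27.8%).

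The miRNAs whose log2 scaled signal followed a member most closely over the 10 DRG arrays are given as a description, since the arrays share groups and background. miR-338 was followed by miR-23a (Pearson's r = 0.85), miR-27b (0.81) and miR-195 (0.79), all detected on every DRG array. miR-338* was followed by miR-350 (0.98), miR-532-3p (0.95) and miR-29a* (0.93), which were detected on 4 or 5 of the 10 arrays only. For miR-219-5p they were miR-323 (0.93), miR-125b-5p (0.92) and miR-140* (0.91). The 2 strands of Mir338 did not follow each other, with r = -0.17 in the DRGs and -0.52 in soleus, and miR-338 and miR-219-5p had r = 0.48 in the DRGs and 0.02 in soleus. On every soleus entrapment and decompression array miR-338* was set to the floor, which enters each of its r values in soleus. In soleus the closest were miR-296* (0.84), miR-27a (0.83) and let-7b* (0.80) for miR-338, miR-487b, miR-466b and miR-339-3p (0.95, 0.95 and 0.94) for miR-338*, and miR-425 (0.92), miR-99a* (0.81) and miR-210 (0.79) for miR-219-5p.

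Other miRNAs described in myelinating glia or Schwann cells were taken as a list of 9, namely miR-138, miR-23a, miR-29a, miR-140, miR-34a, miR-221, miR-222, miR-9 and miR-182. Of these, miR-182 is also in the sensory neuron list used here and miR-9 in the central neuron list. All 9 were tested in the DRGs. Against sham limma called 0 of them after denervation, and after entrapment and after decompression 1 rose and 2 fell. miR-29a rose by 0.72 after entrapment and 0.77 after decompression, with adjusted p-values of 0.00336 and 0.00238 by limma, and miR-9 fell, with differences of -1.23 and -1.25 (0.000971 and 0.000870). miR-222 was the other that fell, at -1.92 and -1.62 on floored log2 values (0.00108 and 0.00257), and was detected on 0 of the 3 entrapment arrays. From denervation 2 rose and 3 fell in each of the groups. The rises were of miR-29a (0.45 after entrapment, 0.50 after decompression) and miR-34a (0.66 and 0.82), and miR-221 (-0.56 and -0.53) fell with miR-9 and miR-222. The median difference of the list from denervation was -0.06 in both groups, beside -0.15 for all tested miRNAs. In soleus 5 of the 9 were tested. miR-140 rose over sham after entrapment (1.54, limma adjusted p = 0.0382) and decompression (1.48, 0.0422), miR-29a rose after decompression from denervation (1.02, 0.0237), and 0 of 5 passed in the other comparisons. The median of these 5 was 0.91 and 0.86 above sham after entrapment and decompression, where that of all 173 was -0.37 and -0.29.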

How the data were processed

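Soleus muscle and DRG RNA was measured on Agilent arrays for rat miRNAs with the dye Cy3 alone, 10 a tissue. Per the labels the arrays were read with Agilent Feature Extraction 9.5.3. The authors deposited for each array each miRNA's total gene signal (a linear intensity, background-subtracted and not normalized between arrays) with an error and a detection call. They also deposited a table of processed signal values, which was used as an alternative only. It follows these intensities divided by a constant for each array. This was checked for signals of at least 20, of which 96.1% to 100% lay within 1%, including every such signal of the members. Signals below 0 do not follow the constant and stand there as small positive values, such as 0.01 for miR-219-1-3p on the soleus sham array. In the DRGs its entrapment and decompression names are exchanged. Labelling was by pCp-Cy3 ligation in the Methods and by Cy3-CTP amplification in the labels, and the difference was not resolved. Rank-consistency LOWESS is named in the Methods without settings, so a loess of that kind (span 0.75) was an alternative.

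Control features and the 2 of 350 miRNAs with differing names were left out. Arrays were scaled to the 75th percentile. In soleus this was taken over the 108 miRNAs that every array detected, since a median of 148.5 of the 348 miRNAs was detected, in the DRGs over all 348, and over 102 for both tissues together. Signals under the floor were set to it. limma 3.58.1 (lmFit and eBayes, R 4.3.3) was fitted with the group as the only term, with 6 residual degrees of freedom a tissue and 12 over the 20 arrays. Sham, with 1 array, was taken to have the spread of the injury groups. Two-sided p-values underwent Benjamini-Hochberg adjustment over all tested miRNAs and were held against 0.05. Bounds for groups without detection followed the lowest detected signal of each array, or the floor where that was higher. The scripts were tested on simulated data. Plots were made in Python 3.11.15 (matplotlib 3.10.9).

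The members and lists were chosen with earlier results of these data known. Named were all 5 members, the 3 closest miRNAs of each tested member in each tissue, and list members on which a result turns. Between 183 and 233 miRNAs were detected on a DRG array and 134 to 194 on a soleus array, and the number of arrays, above all the single sham array, limits the precision. Alternatives were other scalings, floors and filters, the processed values, a fit of the compared groups alone, an intensity trend, the file layout as a term, a replicate block, other fold rules, and leaving out each injury array. The study's spinal segments, PCR and tissue staining were not used here.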

Additional observations from a re-analysis of the deposited data

Results flagged for a closer look

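The difference of miR-219-5p from sham differed between the tissues. For denervation the log2 difference from sham was 2.39 higher in the DRGs than in soleus (limma interaction, adjusted p = 0.00556), and for entrapment 1.56 higher (0.0397). The soleus sham array did not detect miR-219-5p and was the dimmest of the 20, and without scaling the values were 0.56 and -0.62, with adjusted p-values of 0.800 and 0.653. The entrapment value lost its call without soleus entrapment replicate 2 or 3, DRG entrapment replicate 2 or 3, or any 1 of the DRG decompression arrays, with adjusted p-values of 0.0506 to 0.0781. The part of the sham array's brightness was not tested further.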

How the results depend on the processing

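Values are log2 differences or counts of the 3 tested members past a threshold, and the cause of a change was not tested. The call of miR-338 between the tissues held in every alternative run, and that of miR-338* after entrapment and decompression from denervation in the DRGs in all but quantile scaling. Without scaling the limma counts were 0 in the 5 soleus comparisons that had 1, 1 for decompression from sham and 3 for decompression from denervation in the DRGs. Loess and the processed values as deposited also gave 0 in all 5 of these soleus comparisons, and the subtracted background gave 0 in 4. The single member of denervation from sham in soleus was also lost (0) with a floor of 0.01, a pseudocount, no filter, a fit of both groups alone and percentile-scaled processed values. For entrapment from denervation in the DRGs 1 member in place of 2 passed under those 5 settings, an intensity trend, loess and the subtracted background. Under median scaling 2 members passed for entrapment and 3 for decompression from sham in the DRGs, and quantile scaling gave 0 from denervation. The 2-fold rule found 0 members lower in the DRGs under median, quantile and (for entrapment) loess scaling and with the background subtracted, and up to 2 higher after decompression under median scaling. In soleus no scaling, quantile scaling and the percentile over all miRNAs gave 1 member higher and 0 lower after entrapment and after decompression. A 1.5-fold rule or the mean of the 3 arrays gave 2 lower after entrapment in soleus.

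In soleus miR-338 after denervation from sham became 1.23 without scaling, 0.16 under quantile scaling, 0.042 with the percentile over all miRNAs, 0.21 under loess and 1.69 in the processed values. Decompression from entrapment became -0.092 for miR-338 without scaling and -1.28 in the processed values, where miR-219-5p was -0.998 (their constant for decompression replicate 2 was 1222, against 38.7 to 100 for the other soleus arrays) and miR-338 after decompression from denervation -0.061. For miR-219-5p from sham in soleus, no scaling gave 0.21, 0.43 and 0.47 after denervation, entrapment and decompression, quantile scaling 0.21 and 0.27 after the last pair, loess 0.039 and 0.40, and the processed values 0.99 after entrapment. Loess turned miR-338* after decompression from sham to 0.13. With the file layout as a term miR-338 was -0.88 after entrapment and -0.69 after decompression from sham and -0.094 after entrapment from denervation, and miR-219-5p 0.074 after decompression from sham, and 2 members passed for decompression from denervation.

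In the DRGs miR-219-5p from sham became -0.19 after entrapment and -0.058 after decompression without scaling. From denervation it became 0.15 and 0.28 under median, 0.18 and 0.34 under quantile and, for decompression, 0.12 under loess scaling, and miR-338 became 0.62 and 0.51 under median scaling, which moved the median of all miRNAs to 0.49 and 0.51. miR-338* after denervation from sham became 0.11 under median and 0.17 under quantile scaling and 0.019 in the processed values. Decompression from entrapment became 0.34 for miR-338* under quantile scaling and -0.0062 for miR-219-5p with the background subtracted. The processed values, with their exchanged names, turned this comparison to 0.13, 0.067 and -0.11 for miR-338, miR-338* and miR-219-5p, and to 0.12, 0.057 and -0.12 after percentile scaling. Between the tissues quantile scaling gave -0.85 for miR-219-5p and 0.25 for miR-338*, and the percentile over all miRNAs 0.37 for miR-219-5p. DRG minus soleus differences from sham became -0.60 for miR-338 after denervation and -0.62 and -0.53 for miR-219-5p after entrapment and decompression without scaling. Under quantile scaling they became -0.19 for miR-338 after denervation and 0.73 and 0.84 for miR-338* after entrapment and decompression, and a floor of 0.01 gave 7.87 and 7.504 for the latter pair.

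Same-numbered arrays of different groups did not deviate together (correlations -0.47 to 0.21 in soleus and -0.12 to 0.48 in the DRGs), so the numbers were not taken to pair the arrays. With a replicate block miR-338* after denervation from sham in the DRGs became 0.23, miR-338 after entrapment from sham had an adjusted p of 0.0786 by limma, and 0 members passed in the 3 soleus comparisons with sham and for entrapment from sham in the DRGs. Leaving out 1 injury array at a time gave 0 to 2 members for entrapment and 0 to 1 for decompression from sham in either tissue, and 1 to 2 for entrapment from denervation in either tissue and for decompression from denervation in soleus. The count of 2 in soleus came without denervation replicate 3. In the DRGs that of entrapment from sham was 0 without denervation replicate 3 and 2 without entrapment replicate 3. Values that turned ranged, in soleus, from -0.78 to 0.13 (without denervation replicate 1) for miR-338 after denervation from sham and from -0.0087 (without entrapment replicate 1) to 0.42 between decompression and entrapment. In the DRGs the ranges were -0.18 to 0.046 (without denervation replicate 2) for miR-338* after denervation and -0.0058 (without entrapment replicate 2) to 0.32 for miR-219-5p after entrapment from sham, -0.080 to 0.045 for miR-338 after entrapment from denervation, and -0.60 to 0.37 for miR-338* and -0.036 (without entrapment replicate 1) to 0.29 for miR-219-5p between decompression and entrapment. DRG minus soleus, entrapment from sham ranged from -0.20 to 0.21 for miR-338 and from -0.95 to 0.063 for miR-338*. miR-338* and miR-219-5p lie near the background, which limits every value given for them.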
